A study of Mus musculus with 24 samples.

Results

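The pyruvate dehydrogenase complex and the enzymes that switch it on and off were followed in mouse liver across feeding, 24 h of fasting and the deletion of p110α, the catalytic subunit of phosphoinositide 3-kinase encoded by Pik3ca, from hepatocytes. The set holds 10 genes: the kinases Pdk1, Pdk2, Pdk3 and Pdk4, the phosphatases Pdp1 and Pdp2, and the subunits Pdha1, Pdhb, Dlat and Dld. They were found by gene name among the 37074 gene names on the array, and each was read by 1 probe, the one with the highest mean log2 signal over the 24 arrays, with the rest of their 21 probes kept as a check. Of the 10 genes, 9 passed the filter on dim probes, as did 21365 genes in all.

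Liver RNA came from 12-week-old male mice, 1 array per mouse and 6 mice per group, all killed at ZT16 (16 h after lights on). LWT_Fed and LWT_Fasted mice (p110αhep+/+) carried floxed p110α without Cre. LKO_Fed and LKO_Fasted mice (p110αhep-/-) carried floxed p110α and albumin-Cre, which acts in hepatocytes and leaves the gene in the other liver cells. Fed mice ate ad libitum until they were killed, and fasted mice had no food for the last 24 h. All values below are quantile-normalised log2 signals of single probes or differences between them, so that a difference of 1 is a doubling, and levels are compared only within a probe.

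The pyruvate dehydrogenase complex of the mitochondrial matrix turns pyruvate into acetyl-CoA and so commits carbon from glucose to oxidation or fat synthesis. Pyruvate dehydrogenase kinases phosphorylate the E1 alpha subunit and switch the complex off, whereas the phosphatases remove the phosphate and switch it on. In fasted liver an inactive complex spares pyruvate for glucose synthesis, and Pdk4 is known as the kinase gene most responsive to fasting, fatty acids and low insulin. Pdk1 is here pyruvate dehydrogenase kinase 1, not the phosphoinositide-dependent kinase of the insulin pathway, whose gene is Pdpk1.

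Of the 10 genes, 9 have a promoter window in the RefSeq table for GRCm38.p6, and Pdp1 was not matched. The windows of Pdk4, the member with the largest fasting response, and Pdk2, a kinase whose fasting change did not pass the test, are shown for comparison as the 250 bases before the gene start, 5′ to 3′ on the minus strand of both genes, at chr6:5496279-5496528 and chr11:95041372-95041621. Capitals mark CACGTG. Pdk2 has 2 windows in the table, from different gene starts, and the one with CACGTG is shown; the other holds none of the motifs searched.
Pdk4: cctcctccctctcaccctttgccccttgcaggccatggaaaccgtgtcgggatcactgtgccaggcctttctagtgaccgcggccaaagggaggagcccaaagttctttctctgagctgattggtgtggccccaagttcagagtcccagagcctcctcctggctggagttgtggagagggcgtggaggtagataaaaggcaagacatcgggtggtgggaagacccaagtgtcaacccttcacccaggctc
Pdk2: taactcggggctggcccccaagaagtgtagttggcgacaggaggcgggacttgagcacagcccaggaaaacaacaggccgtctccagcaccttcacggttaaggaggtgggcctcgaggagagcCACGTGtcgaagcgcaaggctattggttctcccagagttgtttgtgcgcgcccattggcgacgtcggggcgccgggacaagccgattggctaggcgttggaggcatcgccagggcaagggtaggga
Windows of 300 bases (250 before and 50 after the gene start) were searched on both strands for 5 motifs, each given with its share of all 32851 windows of the table. The motif GTAAACA occurs in 3.65% of windows and the motif CAAAACA in 6.28%. The motif AGGTCA occurs in 16.3%, and the longer motif TCAAGGTCA, which contains it, in 0.423%. The motif CACGTG, which reads alike on both strands, occurs in 7.15%. In the windows of the 9 genes only CACGTG was found, once in Pdk2 and once in Pdp2, at positions -126 and -219 relative to the gene start. The Pdk4 window held 12 CG dinucleotides, against a median of 7 over all windows and 13 to 35 in the other members' windows, apart from a second window of Pdk1 with 2.

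The 24 arrays lay on 3 slides of 8, each slide with 2 arrays of every group. Between 54.7% and 63.0% of spots per array were well above background. On the second principal component the LWT arrays lay at -22.85 to -13.41 and the LKO_Fed arrays at 15.80 to 25.13. The LKO_Fasted arrays split there, replicates 1 and 2 at 32.57 and 30.08 and the others at -0.04 to 0.84. The others thus lay between the LWT and the LKO_Fed arrays. LWT_Fed replicate 3, LKO_Fasted replicate 4 and LWT_Fasted replicate 2 had the lowest array weights, 0.320, 0.355 and 0.441, where the highest was 1.74. The Pik3ca probe was not lower in LKO arrays: it was 12.54 ± 0.26 in LKO_Fed against 11.91 ± 0.21 in LWT_Fed (SD, n = 6), a difference of 0.58 (limma, adjusted p = 0.00147), and differed by -0.02 between the fasted groups (adjusted p = 0.93). Whether this probe lies in the deleted exons was not determined, so it checks nothing about the deletion, and LKO and LWT below mean the arrays so labelled. The 6 hepatocyte markers had a log2 summed signal of 20.48 to 20.66 over all arrays, a sum carried mostly by its brightest probes. Among them Ttr was lower in LKO by -0.21 in the fed (adjusted p = 0.00716) and -0.41 in the fasted state (adjusted p = 2.03e-05) and fell with fasting, and Apoa1 was higher in LKO_Fed by 0.28 (adjusted p = 0.0296). Of markers of other cells, the stellate cell gene Lrat fell by 0.90 and 0.96 on the log2 scale with fasting in LWT and LKO (adjusted p = 0.000267 and 0.000381), whereas Dcn rose by 0.25 in both (adjusted p = 0.0251 and 0.0437), and the other 3 of 5 did not pass. The erythroid gene Alas2 was lower in LKO by -0.80 and -0.83 in the fed and fasted state (adjusted p = 0.00167 and 0.00128), where the other 3 tested did not pass. Alas2 also fell with fasting in LWT and LKO (-0.46 and -0.50, adjusted p = 0.0199 and 0.0238), and of 5 endothelial genes Pecam1 rose with fasting in LKO (0.37, adjusted p = 0.00867). Of the 2 tested pancreas genes, Cela2a was higher in LKO by 0.82 and 0.63 (adjusted p = 0.00306 and 0.021) and Ctrb1 lower by -0.36 and -0.31 (adjusted p = 0.0154 and 0.039). Cela2a also fell by 0.79 and 0.99 on the log2 scale with fasting in LWT and LKO (adjusted p = 0.000836 and 0.000265), and Ctrb1 fell by 0.28 in LWT (adjusted p = 0.0233). The part of these cells in the results below was not tested. In bulk liver, fewer cells of a type and less RNA per cell cannot be told apart.

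Because Pdk4 is strongly expressed in muscle, heart and fat, markers of these tissues were read beside it. The log2 summed signal of the 3 tested of 5 skeletal muscle markers was 8.0 to 8.33 over all arrays (Acta1 and Ckm did not pass the filter), and that of 4 heart markers 7.94 to 8.65. In no comparison did a skeletal or heart marker rise, and only Mylpf fell, with fasting in LWT and in LKO_Fed against LWT_Fed. For fat, 4 of 5 markers were tested and Adipoq did not pass the filter. Their summed signal was 9.08 to 10.32 in LWT_Fed, 8.67 to 12.44 in LWT_Fasted, 8.60 to 8.80 in LKO_Fed and 8.52 to 9.02 in LKO_Fasted. Lep fell with fasting, and Cfd was lower in LKO in the fed (-2.76, adjusted p = 0.0123) and fasted state (-3.00, adjusted p = 0.008). Their part in the results below was not tested.

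With fasting in LWT, 5 of the 9 genes changed, 2 higher (Pdk4, Pdp2) and 3 lower (Pdk1, Pdhb, Dlat), while 41.6% of all genes tested passed the same threshold, 19.9% higher and 21.7% lower (limma, Benjamini-Hochberg adjusted p, threshold 0.05, computed across the kept probes). With fasting in LKO, 3 of 9 changed, Pdk4 higher and Pdk1 and Pdhb lower, against 41.5% of all genes (19.7% higher, 21.9% lower). Between the genotypes in the fed state 5 of 9 differed, Pdp1 higher and Pdk1, Pdha1, Pdhb and Dlat lower in LKO, against 16.4% of all genes (8.8% higher, 7.6% lower). In the fasted state 5 of 9 differed, Pdk4 and Pdp1 higher and Pdk1, Pdk2 and Pdp2 lower in LKO, against 20.6% (9.99% higher, 10.6% lower). The fasting change itself differed between the genotypes (interaction) for Pdk4 and Pdhb, 2 of 9, both upward, against 7.99% of all genes (4.12% upward, 3.87% downward). With a fold over 1.5 also required, the counts were 4, 2, 0, 1 and 1 of 9, where all genes gave 10%, 12.8%, 3.84%, 4.06% and 3.09%. The median change of the 9 genes was -0.05 and -0.10 with fasting in LWT and LKO, and -0.25 and -0.11 for LKO against LWT in the fed and fasted state, where the medians of all genes tested were -0.01, -0.02, -0.01 and -0.00. The 2 fasting comparisons share no arrays, but each genotype comparison shares a group with each of them.

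**Figure D1:**
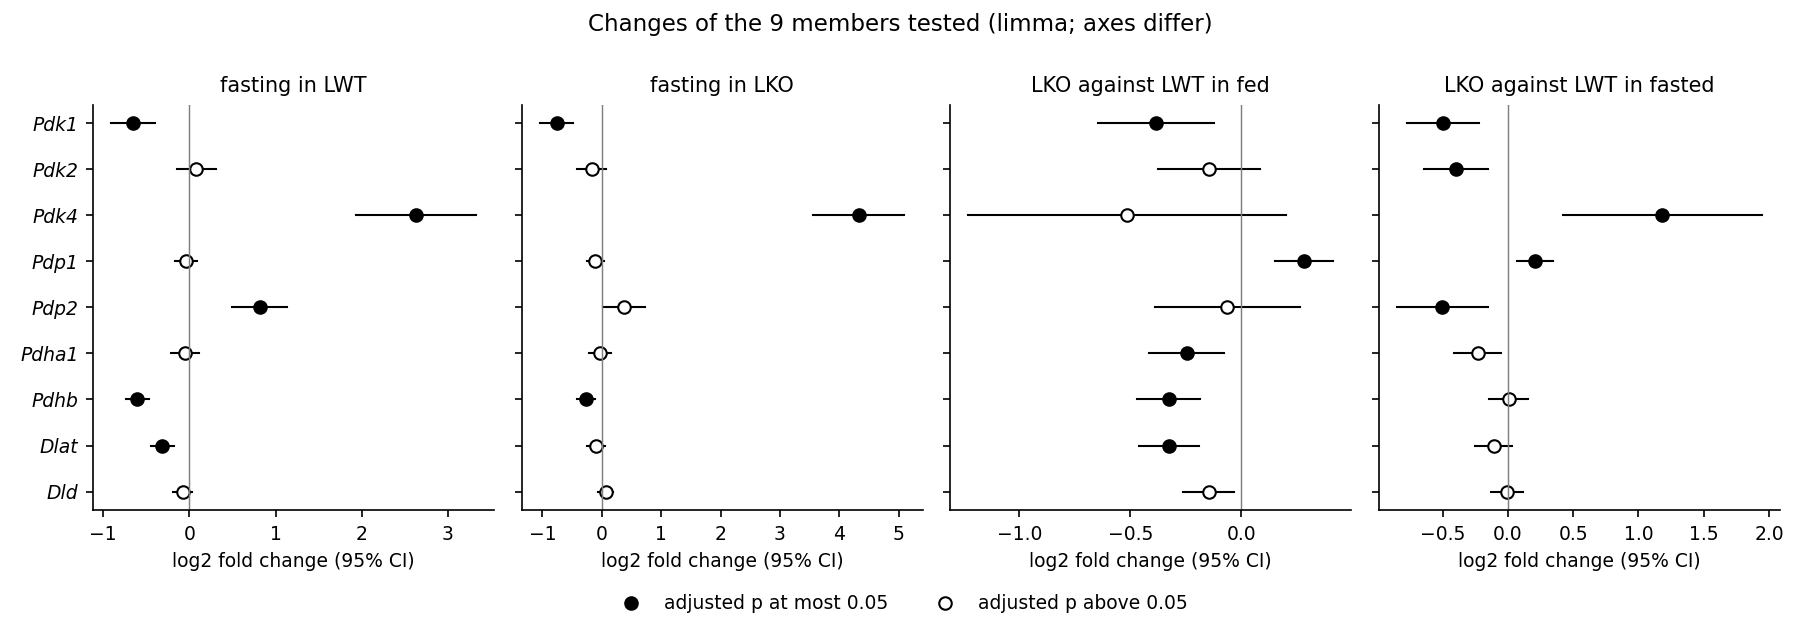
Log2 fold change (x axis) of the 9 genes tested (y axis) in 4 comparisons, as points with 95% confidence intervals from limma. Filled points passed an adjusted p of 0.05 and open points did not, and Pdk4 lies farthest right with fasting, at 2.63 in LWT and 4.32 in LKO.

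Pdk4 showed the largest response of the set. Its signal in LWT_Fed ran from 9.128 to 9.9996 with a median of 9.55, and in LWT_Fasted from 10.91 to 13.24 with a median of 11.86. In LKO_Fed it ran from 8.57 to 9.27 with a median of 9.04, and in LKO_Fasted from 12.25 to 13.84 with a median of 13.37. All fasted arrays were above all fed arrays in each genotype, and the LKO arrays reached both lower in the fed and higher in the fasted state. In all, 5 of 9 genes did not overlap between fed and fasted LWT arrays and 2 of 9 between LKO arrays, where 21.6% and 22.2% of all genes did not.

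Pdk4 rose with fasting by 2.63 (SE 0.337) on the log2 scale in LWT, a 6.18-fold change (adjusted p = 1.93e-06), and by 4.32 (SE 0.373) in LKO, a 20.04-fold change (adjusted p = 5.25e-09). Within slides 1, 2 and 3 the rise was 2.77, 2.52 and 2.03 in LWT and 4.18, 4.38 and 4.17 in LKO. The LKO rise was larger by 1.70 (95% confidence interval 0.66 to 2.74, adjusted p = 0.0422), and within slides by 1.42, 1.86 and 2.14. This difference kept its direction without any 1 array (1.37 to 2.11). It no longer passed without any 1 of 15 of the 24 arrays (adjusted p up to 0.084): LWT_Fed 1, 2, 4 and 5, LWT_Fasted 1, 4 and 5, LKO_Fed 1, 3, 4, 5 and 6, and LKO_Fasted 2, 5 and 6.

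In the fasted state Pdk4 was 1.18 (SE 0.366) higher in LKO than in LWT, or 2.27-fold (adjusted p = 0.0254), with 3 of 6 LKO_Fasted arrays above all LWT_Fasted arrays. Within slides the difference was 0.86, 1.27 and 1.66. The LWT_Fasted arrays were spread widely: replicates 1, 2 and 5 had 10.91, 11.30 and 11.13, and replicates 3, 4 and 6 had 13.24, 12.42 and 12.94. Replicates 1 and 5 also had the lowest values of the group on the first principal component, 16.07 and 17.10 against 24.65 to 30.93, and their part in the Pdk4 difference was not tested. Without LWT_Fasted replicate 1 or 5 the difference was 0.86 in either case (adjusted p = 0.0864 and 0.0882), and without LWT_Fasted replicate 4 or LKO_Fasted replicate 5 or 6 it was 1.06 to 1.104 (adjusted p 0.0508 to 0.0639). Without LKO_Fasted replicates 1 and 2 together it was 1.22 (adjusted p = 0.0546), and in a fit of the fasted arrays alone 1.26 (adjusted p = 0.122).

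In the fed state Pdk4 differed by -0.51 (SE 0.345) between LKO and LWT, with 4 of 6 LKO_Fed arrays below all LWT_Fed arrays. This did not pass in the fit of all groups (adjusted p = 0.344). That fit uses a common estimate of the spread, and the SD of Pdk4 was 1.0 and 0.63 in the fasted groups against 0.28 and 0.27 in the fed groups. In a fit of the fed arrays alone the difference was -0.53 (adjusted p = 0.00849), and a two-sided exact permutation test of the fed arrays gave an unadjusted p = 0.00649.

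**Figure D2:**
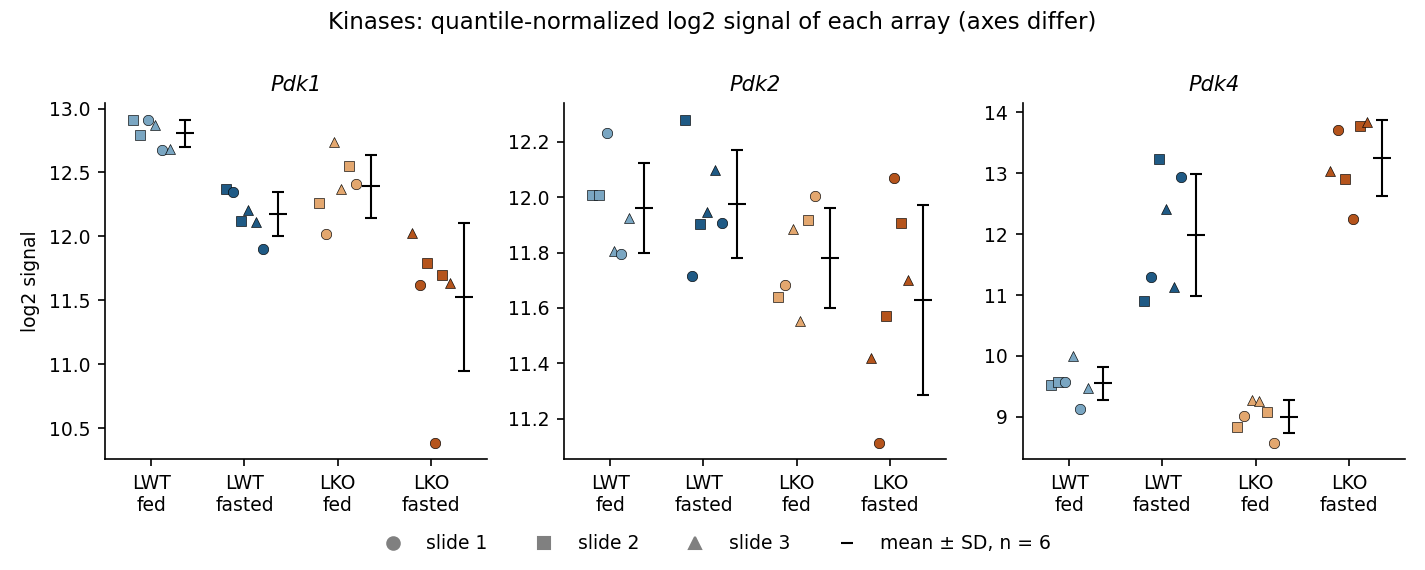
Log2 signal (y axis, quantile-normalised) of Pdk1, Pdk2 and Pdk4 on each array of the 4 groups (x axis), with marker shapes for the 3 slides and the mean ± SD (n = 6). Pdk4 separates all fasted from all fed arrays, and 1 LKO_Fasted array lies low in Pdk1, at 10.38.

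Pdk1 moved opposite to Pdk4 with fasting. Its signal was 12.68 to 12.91 in LWT_Fed (median 12.83) and 11.90 to 12.37 in LWT_Fasted (median 12.16), and 12.02 to 12.74 in LKO_Fed (median 12.39) and 10.38 to 12.03 in LKO_Fasted (median 11.67). The LWT groups did not overlap, and in LKO 5 of 6 fasted arrays were below all fed arrays. Pdk1 fell by 0.65 (SE 0.122) on the log2 scale in LWT (adjusted p = 0.000176) and by 0.76 (SE 0.135) in LKO (adjusted p = 9.71e-05). The difference between these falls was -0.11 (95% confidence interval -0.49 to 0.27, adjusted p = 0.769). Within slides the fall was 0.67, 0.61 and 0.61 in LWT, and the LKO differences were -1.21, -0.66 and -0.72. LKO_Fasted replicate 4, on slide 1, was at 10.38 where the next array was at 11.62. Without it the LKO change was still past the threshold, as it was without any other array (-0.84 to -0.67).

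Pdk1 was also lower in LKO, by -0.38 (SE 0.125) in the fed state (adjusted p = 0.0407) and by -0.49 (SE 0.133) in the fasted state (adjusted p = 0.0109), with 5 of 6 LKO arrays below all LWT arrays in each. The fed difference no longer passed without LWT_Fed replicate 1, 2, 4 or 5 or LKO_Fed replicate 1, 2 or 4 (-0.40 to -0.32, adjusted p 0.0504 to 0.121), while the fasted difference passed without any 1 array (-0.57 to -0.40) but not in a fit of the fasted arrays alone (-0.51, adjusted p = 0.0633). Within slides the differences were -0.58, -0.44 and -0.22 in the fed and -1.12, -0.50 and -0.33 in the fasted state. Pdk1 has 4 other probes. The second brightest, close to the first on the genome, gave -0.67 and -0.73 with fasting and -0.44 and -0.50 between genotypes, all passing. Another did not pass in any comparison (-0.14 and -0.06 with fasting, adjusted p = 0.0516 and 0.474). The last 2 fell with fasting (-0.77 and -0.52, and -0.61 and -0.47), and in LKO_Fasted against LWT_Fasted gave 0.12 (adjusted p = 0.653) and -0.21 (adjusted p = 0.238). In LKO_Fed against LWT_Fed they gave -0.13 (adjusted p = 0.607) and -0.35 (adjusted p = 0.0328), and the probe that passed nowhere -0.12 (adjusted p = 0.18).

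Pdk2, the most widely expressed of the kinases, did not pass with fasting. Its signal was 11.79 to 12.23 in LWT_Fed, 11.71 to 12.28 in LWT_Fasted, 11.55 to 12.00 in LKO_Fed and 11.11 to 12.07 in LKO_Fasted, and all groups overlapped. The fasting change was 0.08 (95% confidence interval -0.14 to 0.30, adjusted p = 0.587) in LWT and -0.17 (-0.42 to 0.08, adjusted p = 0.267) in LKO. In the fasted state Pdk2 was lower in LKO by -0.40 (SE 0.117, adjusted p = 0.0192), and within slides by -0.22, -0.35 and -0.46. This no longer passed without LWT_Fasted replicate 5 or LKO_Fasted replicate 1 or 2 (-0.36 to -0.29, adjusted p 0.0534 to 0.079), and was -0.24 (adjusted p = 0.179) without LKO_Fasted replicates 1 and 2 together. Pdk3 was near the background: its brighter probe was well above background on 2, 3, 3 and 3 of 6 arrays in LWT_Fed, LWT_Fasted, LKO_Fed and LKO_Fasted, with signals of 5.48 to 6.10 over all arrays. It was not tested. In a fit without the filter its changes lay between -0.04 and 0.08 (adjusted p 0.828 to 0.885).

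Of the phosphatases, Pdp1, which is activated by calcium, differed between genotypes. Its signal was 6.53 to 6.80 in LWT_Fed (median 6.62) and 6.84 to 7.02 in LKO_Fed (median 6.94), without overlap. In the fasted groups it was 6.36 to 6.85 in LWT (median 6.65) and 6.76 to 6.98 in LKO (median 6.80), with overlap. LKO_Fed was 0.28 (SE 0.063) above LWT_Fed (adjusted p = 0.00417), and LKO_Fasted 0.21 (SE 0.067) above LWT_Fasted (adjusted p = 0.0339). Within slides the differences were 0.26, 0.27 and 0.34 in the fed and 0.09, 0.12 and 0.31 in the fasted state. The fed difference passed without any 1 array (0.25 to 0.31). In the other settings that kept the probe and the adjusted p as the call rule it also passed, at 0.20 to 0.44. The fasted difference did not pass without LWT_Fasted replicate 1, 5 or 6 or LKO_Fasted replicate 1, 2, 3 or 6 (0.15 to 0.20, adjusted p 0.0534 to 0.0987), nor with normexp background correction (0.15, adjusted p = 0.127). With fasting Pdp1 gave -0.04 in LWT (adjusted p = 0.677) and -0.11 in LKO (SE 0.069, adjusted p = 0.201), with 4 of 6 LKO_Fasted arrays below all LKO_Fed arrays. With median scaling the LKO change passed (-0.18, adjusted p = 0.0218), and the exact permutation test gave an unadjusted p = 0.039. Between genotypes a second, dimmer Pdp1 probe gave 0.21 and 0.27, which did not pass (adjusted p = 0.158 and 0.0792). Between fed LKO and LWT arrays 3 of 9 genes (Pdp1, Pdhb, Dlat) did not overlap, against 8.64% of all genes, and between fasted arrays 0 of 9, against 8.69%.

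Pdp2, the insulin-responsive phosphatase, is read by a pair of probes that differ in sequence and in result. The last 30 of the 60 bases of each are shown 5′ to 3′, because the brighter probe, which the choice by signal took, ends in an unbroken run of alternating T and G, here in capitals. The run covers bases 24 to 60 of the probe, 37 bases, while the longest such run in any other probe of the 10 genes is 4 bases.
Brighter Pdp2 probe: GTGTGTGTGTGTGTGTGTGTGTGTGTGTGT
Second Pdp2 probe: cttgtttccactgtatcatccacacactag
By the probes' own coordinates (mm9) they lie at chr8:107119568-107119627 and chr8:107120490-107120549. On the array 48 probes hold such a run of at least 20 bases, and the other 47 carry 47 gene names. After group and slide means were taken out, these 47 probes correlated with the brighter Pdp2 probe over the 24 arrays with a median r of 0.98 (0.78 to 0.996), whereas the median over all kept probes was 0.01 and the second Pdp2 probe had an r of 0.50. These are descriptions over arrays that share their depth and hybridisation. The part of the repeat in the values of the brighter probe was not tested, and both probes are given below.

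By the brighter probe, the signal was 16.05 to 16.63 in LWT_Fed, 16.74 to 17.34 in LWT_Fasted, 15.72 to 16.58 in LKO_Fed and 16.08 to 17.30 in LKO_Fasted, and only the LWT groups did not overlap with fasting. By the second probe it was 10.61 to 10.996 and 11.35 to 12.10 in the LWT and 10.54 to 10.86 and 11.37 to 11.75 in the LKO groups, fed and fasted, so that neither genotype overlapped with fasting. The brighter probe rose with fasting by 0.81 (SE 0.154, adjusted p = 0.000199) in LWT and gave 0.38 (SE 0.171, adjusted p = 0.0834) in LKO. Without any 1 array the LKO value was 0.23 to 0.51, and it passed without LKO_Fed replicate 6 or LKO_Fasted replicate 1 or 2 (adjusted p 0.0174 to 0.0467). The second probe rose by 0.93 (SE 0.099, adjusted p = 1.45e-07) in LWT and by 0.84 (SE 0.109, adjusted p = 1.95e-06) in LKO. In the fasted state LKO was lower by -0.50 (SE 0.168, adjusted p = 0.0389) with the brighter probe and differed by -0.17 (SE 0.108, adjusted p = 0.285) with the second. Of the 47 other probes with the run, all rose with fasting in LWT (median 0.90), 2 passed in LKO (median 0.41) and 33 were lower in LKO_Fasted than in LWT_Fasted (median -0.55). With Pdp2 read by its second probe, an alternative chosen after the sequence was seen, 4 of 9 genes changed with fasting in LKO and 4 of 9 differed between genotypes in the fasted state. The fasted difference of the brighter probe was also lost without LWT_Fasted replicate 3, 5 or 6 or LKO_Fasted replicate 1 or 2 (-0.48 to -0.37, adjusted p 0.0705 to 0.145).

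**Figure D3:**
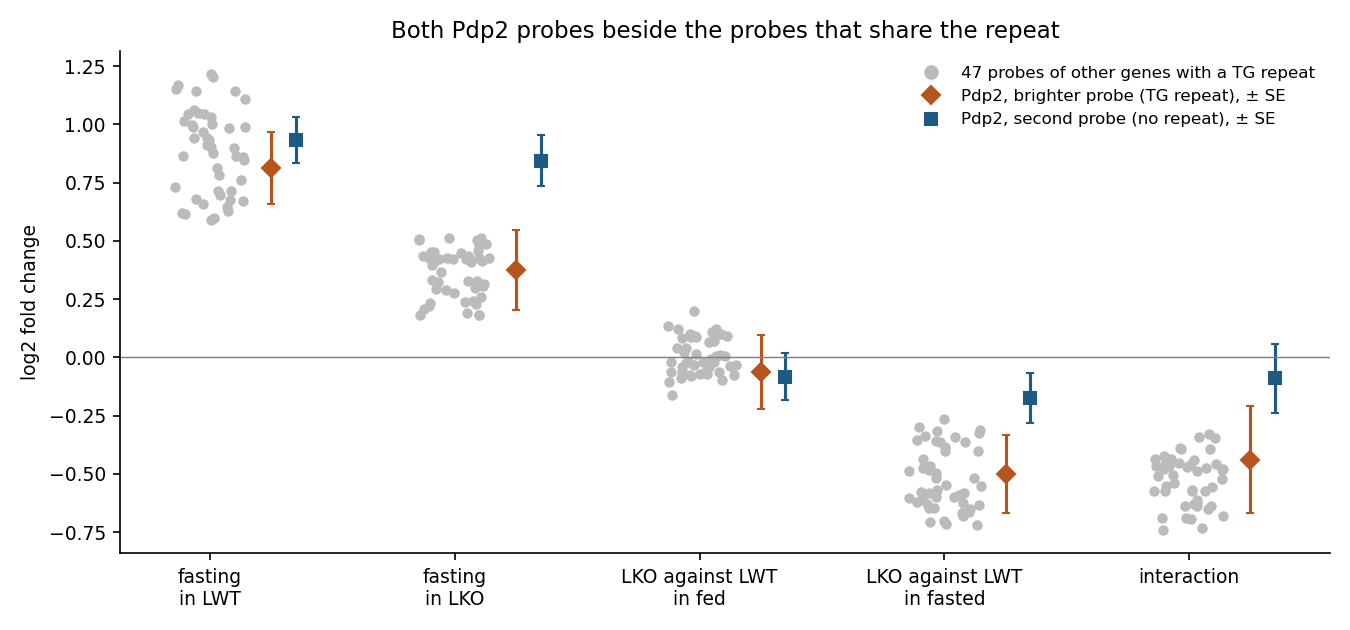
Log2 fold change (y axis) in the 4 comparisons and their interaction (x axis) of the brighter Pdp2 probe, the second Pdp2 probe (both ± SE) and 47 probes of other genes that hold a run of alternating T and G. The brighter Pdp2 probe lies within the cloud of repeat probes, and the second lies above it with fasting in LKO, at 0.84 against a highest value of 0.51.

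Among the subunits, Pdhb, the beta subunit of the E1 enzyme that decarboxylates pyruvate, had the lowest adjusted p with fasting in LWT. Its signal was 14.09 to 14.49 in LWT_Fed (median 14.23), 13.58 to 14.04 in LWT_Fasted (median 13.66), 13.81 to 14.07 in LKO_Fed (median 13.94) and 13.59 to 13.81 in LKO_Fasted (median 13.70). LWT_Fed lay above all other groups without overlap, and the fasted groups overlapped. Pdhb fell by 0.60 (SE 0.067) on the log2 scale with fasting in LWT, 1.52-fold (adjusted p = 2.59e-07), and by 0.27 (SE 0.074) in LKO (adjusted p = 0.00543). In the fed state it was lower in LKO by -0.33 (SE 0.068, adjusted p = 0.00237), and in the fasted state the genotypes differed by 0.01 (95% confidence interval -0.14 to 0.16, adjusted p = 0.961). Within slides the LWT fasting change was -0.32, -0.63 and -0.64 and the fed genotype difference -0.23, -0.32 and -0.35.

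The fasting change of Pdhb differed between genotypes by 0.33 (SE 0.099, adjusted p = 0.0429), within slides by 0.13, 0.33 and 0.38. Without any 1 array this was 0.28 to 0.37, and it no longer passed in 17 of 24 cases (adjusted p up to 0.0891): LWT_Fed 1, 4 and 5, LWT_Fasted 1, 3, 4, 5 and 6, LKO_Fed 3, 4, 5 and 6, and LKO_Fasted 1, 2, 3, 5 and 6. A second Pdhb probe fell by 0.78 in LWT (adjusted p = 2.85e-07) and by 0.45 in LKO (adjusted p = 0.000674) and was lower in LKO_Fed by -0.31 (adjusted p = 0.0206), with an interaction of 0.33 (adjusted p = 0.123). The dimmest probe gave -0.18 and 0.23 with fasting (adjusted p = 0.109 and 0.0649) and -0.21 for LKO_Fed against LWT_Fed (adjusted p = 0.137).

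Pdha1, the E1 alpha subunit that carries the phosphorylation sites, did not pass with fasting. Its signal was 12.51 to 12.91 in LWT_Fed, 12.55 to 12.88 in LWT_Fasted, 12.18 to 12.74 in LKO_Fed and 12.29 to 12.65 in LKO_Fasted, and all groups overlapped. The fasting change was -0.05 (95% confidence interval -0.21 to 0.12) in LWT and -0.03 (-0.22 to 0.15) in LKO (adjusted p = 0.67 and 0.789). LKO was lower by -0.25 (SE 0.081, adjusted p = 0.0433) in the fed state, and the fasted difference of -0.23 (SE 0.086, adjusted p = 0.0621) did not pass. The latter passed with the processed signal (-0.26, adjusted p = 0.0421), without the slide term (-0.23, adjusted p = 0.0494) and with a replicate block (-0.25, adjusted p = 0.0382). It also passed without LWT_Fasted replicate 2 or LKO_Fasted replicate 1 (adjusted p 0.0413 to 0.0458). Before adjustment its p was 0.0133 in the limma fit and 0.0108 in the exact permutation test, with 4 of 6 LKO_Fasted arrays below all LWT_Fasted arrays. The fed difference of Pdha1 no longer passed without LWT_Fed replicate 1, 2, 4 or 5 or LKO_Fed replicate 1, 2, 4 or 5 (-0.27 to -0.19, adjusted p 0.0546 to 0.137). Within slides it was -0.24, -0.47 and -0.09, and in a fit of the fed arrays alone -0.24 (adjusted p = 0.1). The dimmer second Pdha1 probe gave 0.12 for LKO_Fed against LWT_Fed (adjusted p = 0.272).

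**Figure D4:**
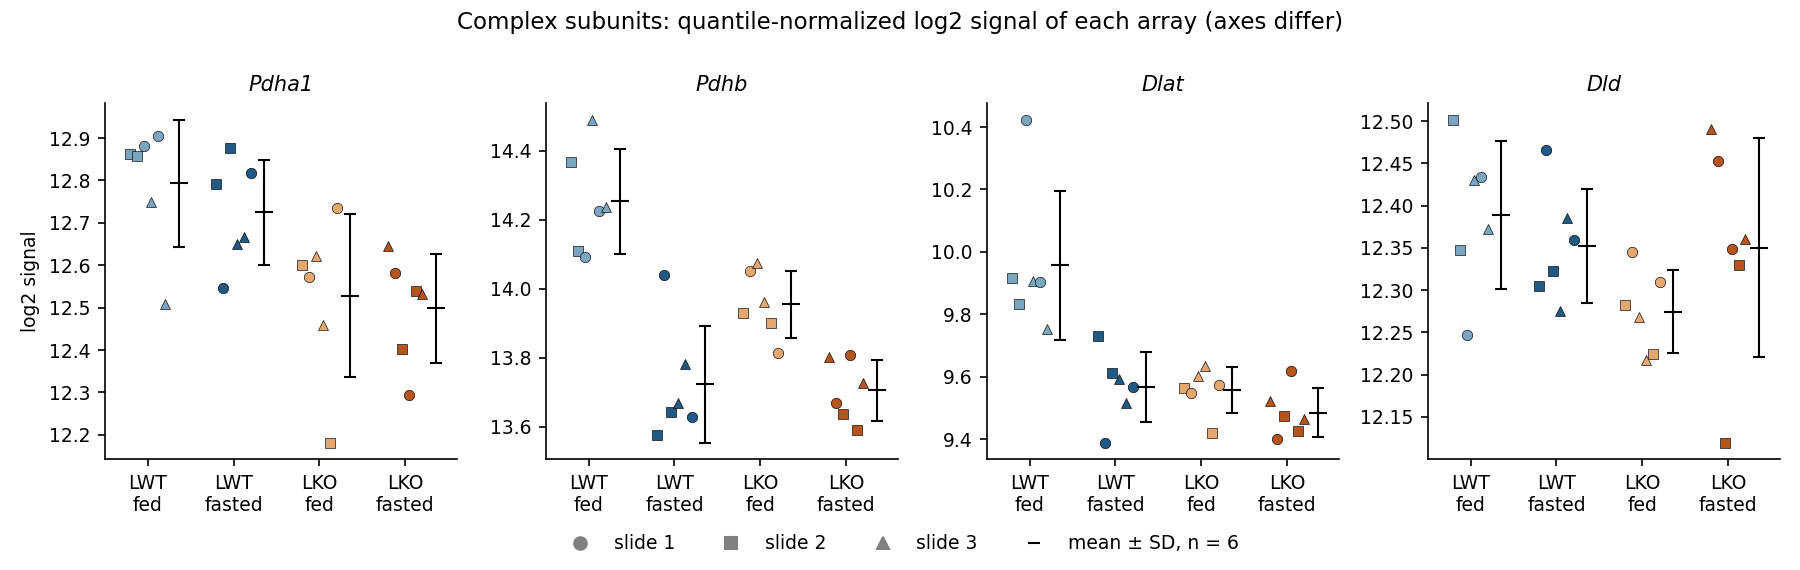
Log2 signal (y axis, quantile-normalised) of Pdha1, Pdhb, Dlat and Dld on each array of the 4 groups (x axis), with marker shapes for the slides and the mean ± SD (n = 6). LWT_Fed lies above the other groups in Pdhb and Dlat, and 1 LWT_Fed array is high in Dlat, at 10.42.

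Dlat, the E2 acetyltransferase core, was highest in LWT_Fed by the probe used. Its signal was 9.75 to 10.42 there (median 9.91), against 9.39 to 9.73 in LWT_Fasted (median 9.58), 9.42 to 9.63 in LKO_Fed (median 9.57) and 9.40 to 9.62 in LKO_Fasted (median 9.47). LWT_Fed did not overlap with any other group. LWT_Fed replicate 3 was at 10.42 where the next array was at 9.92, and its slide gave -0.69 for the LWT fasting change against -0.20 and -0.28 on the others. Dlat fell by 0.31 (SE 0.063) on the log2 scale with fasting in LWT (adjusted p = 0.000373), and the LKO change was -0.10 (SE 0.070, adjusted p = 0.282). In the fed state LKO was lower by -0.33 (SE 0.065, adjusted p = 0.00168). Both calls held without any 1 array (-0.34 to -0.29 and -0.36 to -0.30).

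The second Dlat probe, of nearly equal brightness, gave another fasting result. Its signal was 9.28 to 9.66 in LWT_Fed, 9.30 to 9.65 in LWT_Fasted, 8.94 to 9.28 in LKO_Fed and 9.15 to 9.65 in LKO_Fasted. The LWT change with fasting was -0.00 (SE 0.075, adjusted p = 0.972), and the LKO change a rise of 0.38 (SE 0.083, adjusted p = 0.000796), with an interaction of 0.38 (adjusted p = 0.0389). In the fed state the second probe was also lower in LKO by -0.30 (SE 0.077, adjusted p = 0.0106). The fall of Dlat with fasting thus rests on the probe, whereas its lower level in LKO_Fed was seen with both. Dld, the E3 dehydrogenase shared with the other 2-oxoacid dehydrogenases, did not pass in the fit used throughout. Its signal was 12.25 to 12.50, 12.28 to 12.47, 12.22 to 12.35 and 12.12 to 12.49 in LWT_Fed, LWT_Fasted, LKO_Fed and LKO_Fasted, with changes of -0.15 to 0.06 in the 4 comparisons. The fed genotype difference was the nearest, at -0.15 (SE 0.056, adjusted p = 0.0781). Before adjustment its p was 0.0153 in the limma fit and 0.0216 in the exact permutation test. That difference passed with normexp background correction (-0.15, adjusted p = 0.0413), the processed signal (-0.20, adjusted p = 0.0191), median scaling (-0.21, adjusted p = 0.0201), a replicate block (-0.14, adjusted p = 0.0358) and the deposited table of log2 values (-0.15, adjusted p = 0.047).

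**Figure D5:**
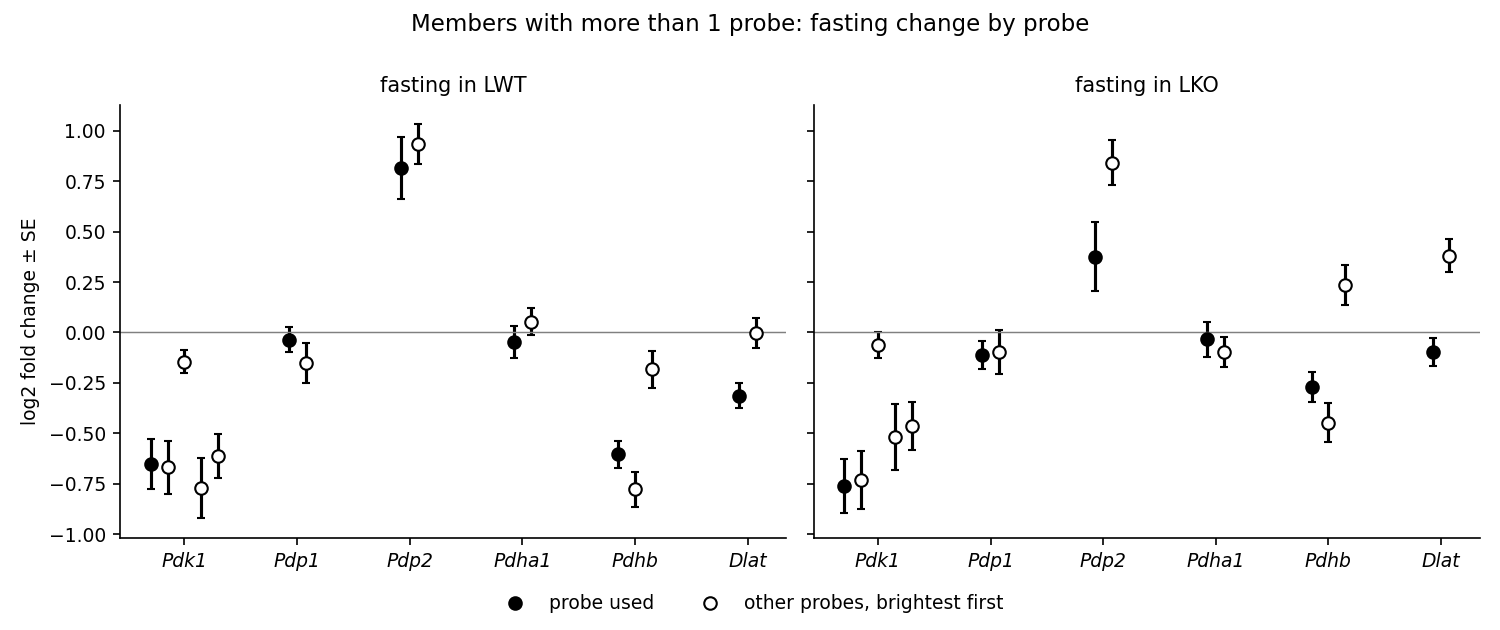
Log2 fold change with fasting (y axis, ± SE) in LWT and LKO for every kept probe of the 6 members with more than 1 (x axis), filled for the probe used. Probes of Pdp2, Dlat, Pdhb and Pdk1 part in LKO. The second Dlat probe is at 0.38 and the one used at -0.10. The dimmest Pdhb probe is at 0.23 and the one used at -0.27, and 1 Pdk1 probe is at -0.06 and the one used at -0.76.

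The genes around the complex were read from lists, 29 of 30 of whose genes were tested. With fasting in LWT 16 rose and 3 fell, and in LKO 12 rose and 5 fell. In LKO_Fed 6 were lower than in LWT_Fed and none higher, and in LKO_Fasted 5 were lower and 1 higher than in LWT_Fasted. Their median changes were 0.18, 0.08, -0.08 and -0.12. The shares of all genes given above, 41.6%, 41.5%, 16.4% and 20.6%, are the background. By direction, 19.9% of all genes rose and 21.7% fell with fasting in LWT, and 19.7% rose and 21.9% fell in LKO. In LKO_Fed 8.8% were higher and 7.6% lower than in LWT_Fed, and in LKO_Fasted 9.99% higher and 10.6% lower than in LWT_Fasted. These shares are also the background of each list below. The list counts are descriptions and carry no test.

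Of the genes for related 2-oxoacid dehydrogenases and regulators, 6 of 8 rose with fasting in LWT and 5 of 8 in LKO, and none fell. Of all genes tested 19.9% and 19.7% rose. Ogdh rose by 0.37 (adjusted p = 1.28e-05) and 0.40 (adjusted p = 1.62e-05). Dlst, the E2 of the 2-oxoglutarate dehydrogenase, rose by 0.18 in LWT and 0.52 in LKO, with an interaction of 0.33 (adjusted p = 0.0288). Bckdk and Ppm1k, the kinase and phosphatase of the branched-chain dehydrogenase, did not pass in any comparison. Pdpr, which lowers the activity of Pdp1, rose by 0.59 (adjusted p = 3.91e-07) and 0.49 (adjusted p = 1.36e-05), and Pdhx, the E3-binding protein, passed nowhere.

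Among genes for the supply of the complex's cofactors, none rose with fasting. Lipt1, which transfers lipoate, fell in LWT by 0.42 on the log2 scale (adjusted p = 0.000116), and Nfu1, an iron-sulfur carrier needed for lipoate synthesis, by 0.19 (adjusted p = 0.00791). In LKO Nfu1 fell by 0.23 (adjusted p = 0.00407), and Lipt1 gave -0.17 (adjusted p = 0.108). Of the carrier that brings pyruvate into mitochondria, Mpc2 rose by 0.29 and 0.38 with fasting, and Mpc1 passed nowhere.

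Of 5 genes for other fates of pyruvate, 4 rose with fasting in LWT, and in LKO 3 rose and Gpt fell. Pcx, whose enzyme carboxylates pyruvate for glucose synthesis, rose by 0.44 (adjusted p = 2.58e-06) and 0.48 (adjusted p = 2.68e-06). Ldha, the lactate dehydrogenase A subunit, rose by 0.29 in LWT (adjusted p = 0.000412) and by 0.89 in LKO (adjusted p = 4.75e-10), a difference of 0.60 (adjusted p = 0.000306). It was lower in LKO_Fed by -0.20 (adjusted p = 0.0243) and higher in LKO_Fasted by 0.39 (adjusted p = 0.00017). Of the 5 genes, 3 were lower in LKO_Fed than in LWT_Fed and none higher. In LKO_Fasted 2 were lower than in LWT_Fasted, and only Ldha was higher. Gpt, the cytosolic alanine aminotransferase, had an interaction of -0.35 (adjusted p = 0.0241).

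Of 6 regulators known to act on Pdk4, 4 rose and 1 fell with fasting in LWT, and 2 rose and 1 fell in LKO. Ppara, the fatty acid receptor, rose by 0.89 (adjusted p = 2.96e-10) and 0.87 (adjusted p = 1.44e-09). The coactivator Ppargc1a rose by 0.99 in LWT (adjusted p = 0.0016) and gave 0.56 in LKO (adjusted p = 0.089). Foxo1, whose factor is held out of the nucleus by insulin signalling, rose by 0.71 in LWT (adjusted p = 2.04e-05) and gave 0.05 in LKO (adjusted p = 0.791), with an interaction of -0.67 (adjusted p = 0.0166), and was lower in LKO_Fasted by -0.63 (adjusted p = 0.000766). Esrrg was lower in LKO_Fed by -0.48 (adjusted p = 0.0493).

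Across the 24 arrays, after group and slide means were taken out, the genes most like Pdk4 were an intergenic transcript named by a region of chromosome 8 (r = 0.84), Slc16a1, a lactate and ketone body transporter (r = 0.79), Bace1 (r = 0.79), Cpt1b, a carnitine palmitoyltransferase (r = 0.77), and Cct2 (r = 0.76). These r values describe arrays that share their processing and carry no test. Slc16a1 rose with fasting by 0.70 in LWT and 1.56 in LKO, Bace1 by 1.03 and 1.41, and Cpt1b by 1.24 and 2.10, while the intergenic transcript fell by 0.46 in LKO.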

How the data were processed

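RNA of 24 livers was hybridised, 1 colour (Cy3) per array, to Agilent mouse arrays of design 074809 and read with Feature Extraction 10.10.1.1. The authors deposited scanner files whose median signal intensity per spot was used here, and a table of log2 values that the authors filtered, corrected for the washing bath and quantile-normalised, used as an alternative. The washing bath of each array is not given in the sources used here, so slide stood in its place. Probe coordinates in the files are mm9.

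Control and outlier spots were left out, spots of a probe were averaged, and 32197 of 56605 probes were kept that were well above background on at least 5 of 6 arrays in a group. No spot was saturated. After log2 and quantile normalisation, limma 3.58.1 in R 4.3.3 was fitted to all groups with slide and array weights, with Benjamini-Hochberg adjustment over the kept probes. A change passed at an adjusted p of at most 0.05. In a simulation for fasting in LWT, 67, 67 and 66 of 32151 probes were changed by 0.5, 1 and 2 log2 units. Of these, 76.1%, 97.0% and 100.0% were recovered. The simulation gave a probe the same spread in all groups and on all arrays, and changed a far smaller share of probes than passed in the data. It therefore does not give the power in the real arrays, nor that of the genotype and interaction comparisons. Single members were also tested by two-sided exact permutation over arrays, for which the smallest possible p is 0.00216. The permutation p values are not adjusted for multiple testing, and that test uses neither slide nor array weights. They are thus not on the scale of the adjusted p. The number of arrays limits the precision.

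Genes named from the lists were, in each comparison, the 2 highest and 2 lowest passing genes over the pathway lists, and the 5 genes closest to Pdk4 by r; others were named after their values were seen. Some list genes that the rule names are not reported here. The members and lists were chosen with earlier results of these data known. Each array is 1 mouse. Alternatives covered background correction, scaling, filter, weights, slide, arrays in the fit, single arrays left out, other probes and the deposited table.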

Additional observations from a re-analysis of the deposited data

Results flagged for a closer look

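In Pdk1, LKO_Fasted replicate 4 stood apart at 10.38, where the nearest array of its group was at 11.62. In Pdp1, LKO_Fasted replicate 3 stood apart at 6.98 (nearest 6.84), and in Dlat, LWT_Fed replicate 3 at 10.42 (nearest 9.92). Each gap, divided by the group's range, exceeded Dixon's critical value for 6 arrays. In all 36 groups of 6 were tested so, and chance flags about 1 in 20. The first and last of these arrays also had the lowest array weights of the 24, 0.355 and 0.320.

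The fasting change differed between genotypes in Pdk4, by 1.70 (limma interaction, adjusted p = 0.0422), and in Pdhb, by 0.33 (adjusted p = 0.0429).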

How the results depend on the processing

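The fasting changes of Pdk4, Pdk1 and Pdhb in both genotypes, and of Dlat and Pdp2 in LWT, passed without any 1 array and in every tested setting that kept the probe and the adjusted p as the call rule; the genotype and interaction calls were less stable. The members passing numbered 3 in the fed genotype comparison, 3 in the fasted one and 0 in the interaction (limma, adjusted p) with no filter on dim probes; 3, 2 and 1 without array weights; and 0, 1 and 1 when a fold over 1.5 was also required. A fit of the compared groups only gave 0 in the fasted comparison, and leaving out LKO_Fasted replicates 1 and 2 together gave 1 there and 0 in the interaction. Calls lost with no filter were Pdk1 and Pdha1 in the fed state (adjusted p = 0.0758 and 0.0651), Pdp1 and Pdp2 in the fasted state (0.0726 and 0.0624) and the interactions of Pdk4 and Pdhb (0.0633 and 0.103). Without array weights those of Pdk1 and Pdha1 in the fed state (0.104 and 0.0508), Pdk2, Pdp1 and Pdp2 in the fasted state (0.0657, 0.0618 and 0.0522) and the interaction of Pdhb (0.124) were lost. In the fed comparison normexp, the processed signal, median scaling and the deposited table each gave 6, with Dld added (adjusted p 0.0191 to 0.047). Without any 1 array the counts were 5 to 5 and 3 to 4 for fasting in LWT and LKO, 3 to 5 and 1 to 6 between fed and fasted genotypes, and 0 to 2 for the interaction. Other probes gave the opposite sign for Dlat (0.38) and Pdhb (0.23) with fasting in LKO, Pdha1 (0.12) in the fed state and Pdk1 (0.12) in the fasted state. The cause was not tested. The replicate numbers do not pair arrays (mean correlation of deviations per number -0.06 to 0.01), and a replicate block gave 5, 4, 6, 6 and 2 members passing against 5, 3, 5, 5 and 2. It gained calls for Pdp2 with fasting in LKO (0.34, adjusted p = 0.0442), Dld in the fed state (-0.14, adjusted p = 0.0358) and Pdha1 in the fasted state (-0.25, adjusted p = 0.0382). Signals near background limit Pdk3. The Pdp1 probe used was also dim (6.36 to 7.02), though well above background on all 24 arrays.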
